A study of Mus musculus with 20 samples.

Results

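The genes described here encode the nuclear subunits of the mitochondrial complexes of oxidative phosphorylation, measured in mouse brain progenitor cell lines. Members were all genes whose symbol begins with Nduf followed by a, b, c, s or v, with Uqcr, with Cox4 to Cox8 or with Atp5, together with Sdha, Sdhb, Sdhc and Sdhd. The rule found 90 genes of the 18193 that had a probe set with a single gene symbol. They were 34 subunits of complex I, 4 of complex II, 8 of complex III, 19 of complex IV, 17 of complex V, and the 8 assembly factors Ndufaf1 to Ndufaf8, which the rule takes in although they are not part of the finished enzyme. Ndufa4 and its relative Ndufa4l2 were counted with complex IV. Ndufs6, Ndufa11, Ndufb4b, Ndufb4c and Cox7b had no probe set with a single symbol and are not analysed here.

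The study compared 4 groups of 5 arrays, each array with total RNA of 1 sample. They were embryonic progenitors after transduction, which the labels call a genetic modification, control embryonic progenitors, postnatal progenitors after transformation, and control postnatal progenitors. What was introduced, the transforming agent and the mouse strain are not in the labels. The labels number the samples without saying that they came from separate cultures, so the spread behind each p-value may be technical. In such RNA, fewer cells of a type and less RNA per cell cannot be told apart.

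Oxidative phosphorylation passes electrons from NADH (complex I) and succinate (complex II) through complex III and cytochrome c to oxygen at complex IV. Complexes I, III and IV pump protons across the inner membrane, and complex V, the ATP synthase, makes ATP from the gradient. A few core subunits are encoded in mitochondrial DNA and lie outside the rule, and the other subunits come from nuclear genes such as those measured here. Several complex IV subunits exist as a form found in most tissues and a form typical of heart and muscle, testis or lung.

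The values are array signals as deposited, which share a common trimmed mean on every array, and changes are log2 differences with their standard error. A change was called at an adjusted p under 0.05 in a limma model of all 18193 genes. Further probe sets of a gene were called in the same way, in a model of all 34945 probe sets with a single gene symbol. Olig2 and Sox2, transcription factors of glial progenitors, were bright in every group, with mean Olig2 signals of 37229 in embryonic transduced, 70639 in embryonic control, 47395 in postnatal transformed and 69691 in postnatal control cells. Mean Sox2 signals were 45953, 45708, 36853 and 61414 in the same order of groups. Of 7 measured glial progenitor markers, 5 were called lower in the embryonic response, with summed signals of 148710 to 160100 in embryonic transduced and 242010 to 270060 in embryonic control cells. In the postnatal response 3 were lower and 1 higher, with sums of 241060 to 253420 in postnatal transformed and 289630 to 343160 in postnatal control cells. All 4 neuron markers were lower in embryonic transduced cells (sums of 2092 to 2690 against 6870 to 7605 in control cells), and in the postnatal response 2 were lower and 2 higher. Of 4 astrocyte markers 3 were lower and 1 higher in postnatal transformed cells. The part of these shifts in the members' changes was not tested. Mki67, a marker of cycling cells, averaged 4485 in postnatal transformed cells. In postnatal control cells it had signals of 37266, 34816, 35822, 5929 and 4351, so that arrays 4 and 5 stood apart. Results of the postnatal comparison are therefore also given without these arrays where they differ. The members' median on arrays 4 and 5 lay 0.12 below that on arrays 1 to 3 (log2). A gap beyond 0.5 was found for 5 of 90 members, against 36.2% of all genes.

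The promoters of 5 complex IV genes are shown because the largest changes were in isoforms of this complex, and because the pairs Cox7a1 and Cox7a2, and Cox6b2 and Cox6b1, set a tissue isoform beside its widely expressed relative. Each is the 250 bases before the RefSeq start in GRCm38.p6, 5′ to 3′ on the strand of the gene, with matches to the motifs searched in capitals. They are Cox7a1 (chr7:30183921-30184170, plus strand), Cox7a2 (chr9:79759854-79760103, minus strand), Cox6b2 (chr7:4753095-4753344, minus strand), Cox6b1 (chr7:30626115-30626364, minus strand) and Cox6a1 (chr5:115348959-115349208, minus strand).
Cox7a1: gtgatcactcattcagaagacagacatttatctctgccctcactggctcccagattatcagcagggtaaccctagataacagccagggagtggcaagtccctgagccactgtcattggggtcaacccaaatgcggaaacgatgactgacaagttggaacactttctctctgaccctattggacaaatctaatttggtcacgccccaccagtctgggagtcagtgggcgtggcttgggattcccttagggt
Cox7a2: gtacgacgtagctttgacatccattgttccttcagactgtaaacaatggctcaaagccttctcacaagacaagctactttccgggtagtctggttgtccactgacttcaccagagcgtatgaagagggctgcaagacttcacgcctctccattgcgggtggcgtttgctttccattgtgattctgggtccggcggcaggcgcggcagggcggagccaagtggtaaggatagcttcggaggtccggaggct
Cox6b2: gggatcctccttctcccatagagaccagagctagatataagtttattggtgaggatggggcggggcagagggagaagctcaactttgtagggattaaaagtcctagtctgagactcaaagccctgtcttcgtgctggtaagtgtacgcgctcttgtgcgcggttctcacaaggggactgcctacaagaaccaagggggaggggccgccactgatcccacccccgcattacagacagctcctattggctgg
Cox6b1: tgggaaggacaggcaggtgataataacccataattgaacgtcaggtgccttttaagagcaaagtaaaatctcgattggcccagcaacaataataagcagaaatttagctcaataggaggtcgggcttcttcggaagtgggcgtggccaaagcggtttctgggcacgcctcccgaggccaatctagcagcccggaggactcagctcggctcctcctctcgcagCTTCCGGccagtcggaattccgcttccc
Cox6a1: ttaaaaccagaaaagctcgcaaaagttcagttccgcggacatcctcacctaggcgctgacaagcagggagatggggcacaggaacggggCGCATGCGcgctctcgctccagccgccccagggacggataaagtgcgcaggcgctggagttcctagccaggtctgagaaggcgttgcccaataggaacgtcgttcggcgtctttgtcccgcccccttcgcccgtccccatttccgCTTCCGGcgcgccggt
The muscle isoform promoter Cox7a1 held 4 CpG dinucleotides, Cox6b2 held 8, Cox6b1 and Cox7a2 held 14 each, and Cox6a1 held 26. Promoters were found for 74 of the 90 members, and none was in the table for Cox6a2, Cox4i2, Ndufa4l2 or Uqcrq. Motifs of factors known to act on mitochondrial genes were searched on both strands of these 250 bases. The NRF1 core GCATGCG occurred in 12.2% of the 74 promoters, against 3.43% of 27018 genes. The ETS site CCGGAAG, to which GABP binds, occurred in 18.9%, against 7.83%. The ERR site AAGGTCA stood in 6.76%, against 4.7%, the YY1 core AAGATGG in 1.35%, against 5.19%, and the hypoxia core ACGTG in 21.6%, against 18.5%. The Cox6a1 promoter held an overlapping pair of NRF1 matches, 1 on each strand, and 1 ETS match, and Cox6b1 held 1 ETS match. Such a match is a description of the letters and does not show binding.

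Oxidative phosphorylation genes were among the brightest on the arrays. Of the 90 members, 67 lay in the top 5% of all genes by mean signal, 72 had a mean signal over 10000, and 85 were above background on all 20 arrays. Background was the 95th percentile of bacterial control probe sets, between 107 and 221 on an array. All 17 complex V genes lay in the top 5%. Uqcrb, an accessory subunit of complex III, was the brightest member, with a mean signal of 116890 over all arrays, whereas Cox7b2, a testis form of a complex IV subunit in humans, lay below background on every array. Sdhb was the brightest and Sdhd the dimmest gene of complex II, Uqcr10 was the dimmest of complex III, Cox7a2 the brightest of complex IV and Atp5g1 the dimmest of complex V. The assembly factors were dimmer than the subunits, between the 67.1 and 87.9 percentile. The median SD of a member within a group was 0.088 (log2) in embryonic transduced, 0.090 in embryonic control, 0.064 in postnatal transformed and 0.116 in postnatal control arrays.

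Transduced embryonic progenitors had lower signals than their controls for 42 of the 90 genes and higher signals for 10. The falls were small and came from each of the 5 complexes. By the brightest probe set of each gene none reached 2-fold, against 5.74% of all genes. The largest changes were rises of at least 2-fold in the complex IV genes Cox7a1 and Cox7c (2 members, against 8.61% of all genes). The arrays of the 2 groups did not overlap for 39 members lower and 11 higher, against 16% and 18.8% of all genes. Lower calls made up 46.7% of the members, against 18% of all genes, and higher calls 11.1%, against 21.3%. Bright genes in general fell more often in this comparison. Of the 72 members with a mean signal over 10000, a level chosen after the data were seen, 54.2% were lower and 6.94% higher, against 41.4% and 21.7% of all genes this bright. The median change was -0.15 for the members and 0.08 for all genes.

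Counts of this size depended on how arrays were scaled. Quantile normalization gave 34 members lower and 14 higher, with 41.7% of the bright members lower, against 35% of bright genes, and centring each array on its median gave 63 lower and 6 higher. Lower calls outnumbered higher ones under each of these scalings. The median of all genes moved by more than 0.1 with the scaling, and relative to it the members' median lay at -0.22 as deposited and with median centring, and at -0.06 after quantile normalization.

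Transformed postnatal progenitors had lower signals than their controls for 28 genes and higher signals for 15. Lower calls made up 31.1% of the members, against 22% of all genes, and higher calls 16.7%, against 20.3%. Of the 72 bright members 33.3% were lower and 13.9% higher, against 39.1% and 29.9% of all genes with a mean signal over 10000, so the share of lower calls was not above that of bright genes in general. The median change was -0.03, against -0.0024 for all genes. At least 2-fold, 4 members rose (Cox6a2, Cox7a1 and the dim Cox4i2 and Ndufa4l2) and 1 fell (Cox7c), against 9.56% and 6.4% of all genes. The groups did not overlap for 20 members lower and 12 higher, against 15.9% and 16.4% of all genes. Without postnatal control arrays 4 and 5, 34 members were lower and 13 higher, with 10 calls gained (Atp5d, Atp5e, Cox6b2, Ndufab1, Ndufaf6, Ndufb2, Ndufv2, Sdha and Sdhc lower, Ndufaf7 higher) and 6 lost (Cox7a2l, Ndufa8, Ndufaf1, Cox4i2, Ndufc1 and Ndufs5). Mki67 differed between these groups, as given above, and its part in the postnatal changes was not tested.

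**Figure D1:**
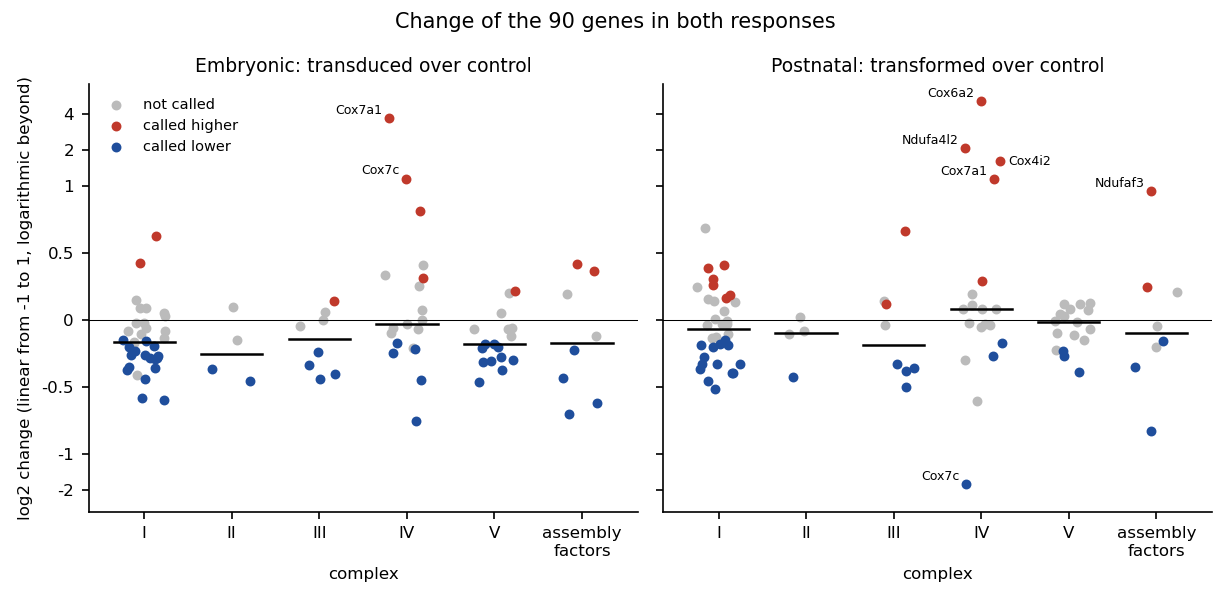
Log2 change of each of the 90 genes by complex, in the embryonic response (transduced over control, left) and the postnatal response (transformed over control, right). Each point is 1 gene, red and blue points were called higher and lower, and the bar is the median. The axis is linear between -1 and 1 and logarithmic beyond. Most points of complexes I and V lie just under 0 in the embryonic panel, and the far points are complex IV genes, such as Cox6a2 at 5.12 in the postnatal panel.

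Complex I, which oxidizes NADH, had 17 of 34 subunits lower and 2 higher in embryonic transduced cells, and 14 lower and 6 higher in postnatal transformed cells. The shares lower were 50% and 41.2%, against 41.4% and 39.1% of all genes with a mean signal over 10000, so the postnatal share was near that of bright genes. Its core subunits carry the flavin and iron-sulphur clusters. Of 6 core subunits measured, 5 were lower in embryonic transduced and 4 in postnatal transformed cells, and none was higher in either. Ndufs8, an iron-sulphur core subunit, had signals of 31423, 33269, 36344, 37966 and 36789 in embryonic transduced cells, against 46535, 54201, 43586, 46722 and 47795 in embryonic control cells. The 2 groups did not overlap, and the change was -0.44 ± 0.07 (adjusted p = 1.2e-05). In the postnatal pair Ndufs8 averaged 42821 ± 2670.0 in transformed and 43746 ± 2884 in control cells, with overlapping arrays and a change of -0.03 ± 0.07 (adjusted p = 0.77). Ndufv1, which binds NADH, was lower at both ages, by -0.37 ± 0.07 in the embryonic and -0.40 ± 0.07 in the postnatal response. Ndufs1, the largest core subunit of the matrix arm, changed by -0.19 and -0.33 in the same order and Ndufs3 by -0.15 and -0.20, each called lower in both. Ndufs7 was called lower only in the postnatal cells (-0.33, against 0.03 in the embryonic cells), and the 2 responses differed (adjusted p = 0.00286). Ndufv2 was called lower in the embryonic cells (-0.29) and not in the postnatal cells (-0.10). The difference of 0.19 ± 0.07 (adjusted p = 0.04) was lost without postnatal control arrays 4 and 5 (adjusted p = 0.101). Further bright Ndufv2 probe sets were called lower in both responses. They changed by -0.31 and -0.31 in the embryonic cells and by -0.13 and -0.20 in the postnatal cells. Their differences were 0.18 (called) and 0.11 (not called).

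Accessory subunits surround this core and are needed for its assembly and stability. Ndufc2, the brightest complex I gene and a part of the membrane arm, had signals of 48968, 52143, 50384, 51819 and 49659 in embryonic transduced cells. In embryonic control cells they were 72174, 78387, 71325, 73926 and 87340.4. All transduced arrays were below all control arrays, and the change was -0.60 ± 0.06 (adjusted p = 5.24e-08). A pair of further bright probe sets of Ndufc2 changed by -0.82 and -0.96. Ndufb2, also of the membrane arm, changed by -0.58 ± 0.06. In the postnatal pair neither was called, Ndufc2 at -0.03 and Ndufb2 at -0.14. Without postnatal control arrays 4 and 5 Ndufb2 was called lower there (-0.18, adjusted p = 0.0276). A further bright Ndufb2 probe set was called lower there with all arrays (-0.18).

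Against this direction, Ndufv3, a small accessory subunit of the NADH-oxidizing module, and Ndufa6 were higher in both modified groups. Ndufv3 had signals of 34617, 36934, 37329.5, 41628 and 37861 in embryonic transduced cells and between 24123 to 24447 in embryonic control cells, a change of 0.63 ± 0.07 (adjusted p = 6.36e-08). It averaged 30759 ± 1110.2 in postnatal transformed and 24954 ± 2810.1 in postnatal control cells (SD, n = 5 each), a change of 0.31 ± 0.07. Ndufa6 rose by 0.43 ± 0.07 in the embryonic and 0.41 ± 0.07 in the postnatal response. In none of these 4 comparisons did the arrays overlap.

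The postnatal response of complex I had its own falls. Ndufs4, an accessory subunit needed late in assembly whose loss in mice gives a Leigh-like brain disease, had signals of 11816, 11939, 11185, 10198 and 10446 in postnatal transformed cells, against 18527, 17496, 17624, 12765 and 13726 in postnatal control cells. The groups did not overlap, although control arrays 4 and 5 were the lowest of theirs, and the change was -0.51 ± 0.08 (adjusted p = 2.9e-05). Ndufb11 changed by -0.39 ± 0.06, and Ndufb9 rose by 0.39 ± 0.05. Ndufb7 changed by -0.46 ± 0.07, but it was called lower in the embryonic response as well (-0.36 ± 0.07), and its responses did not differ by a call. Ndufs5 was lower in embryonic transduced cells (-0.35) and higher in postnatal transformed cells (0.17), and the responses differed by 0.52 ± 0.07 (adjusted p = 3.01e-06). The postnatal call of Ndufs5 was lost without postnatal control arrays 4 and 5 (0.11, adjusted p = 0.0814). The single-symbol probe set of Ndufb4 was near background, above it on 1 of 5 embryonic transduced, 3 embryonic control, 2 postnatal transformed and 0 postnatal control arrays, so no change is given for that gene.

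**Figure D2:**
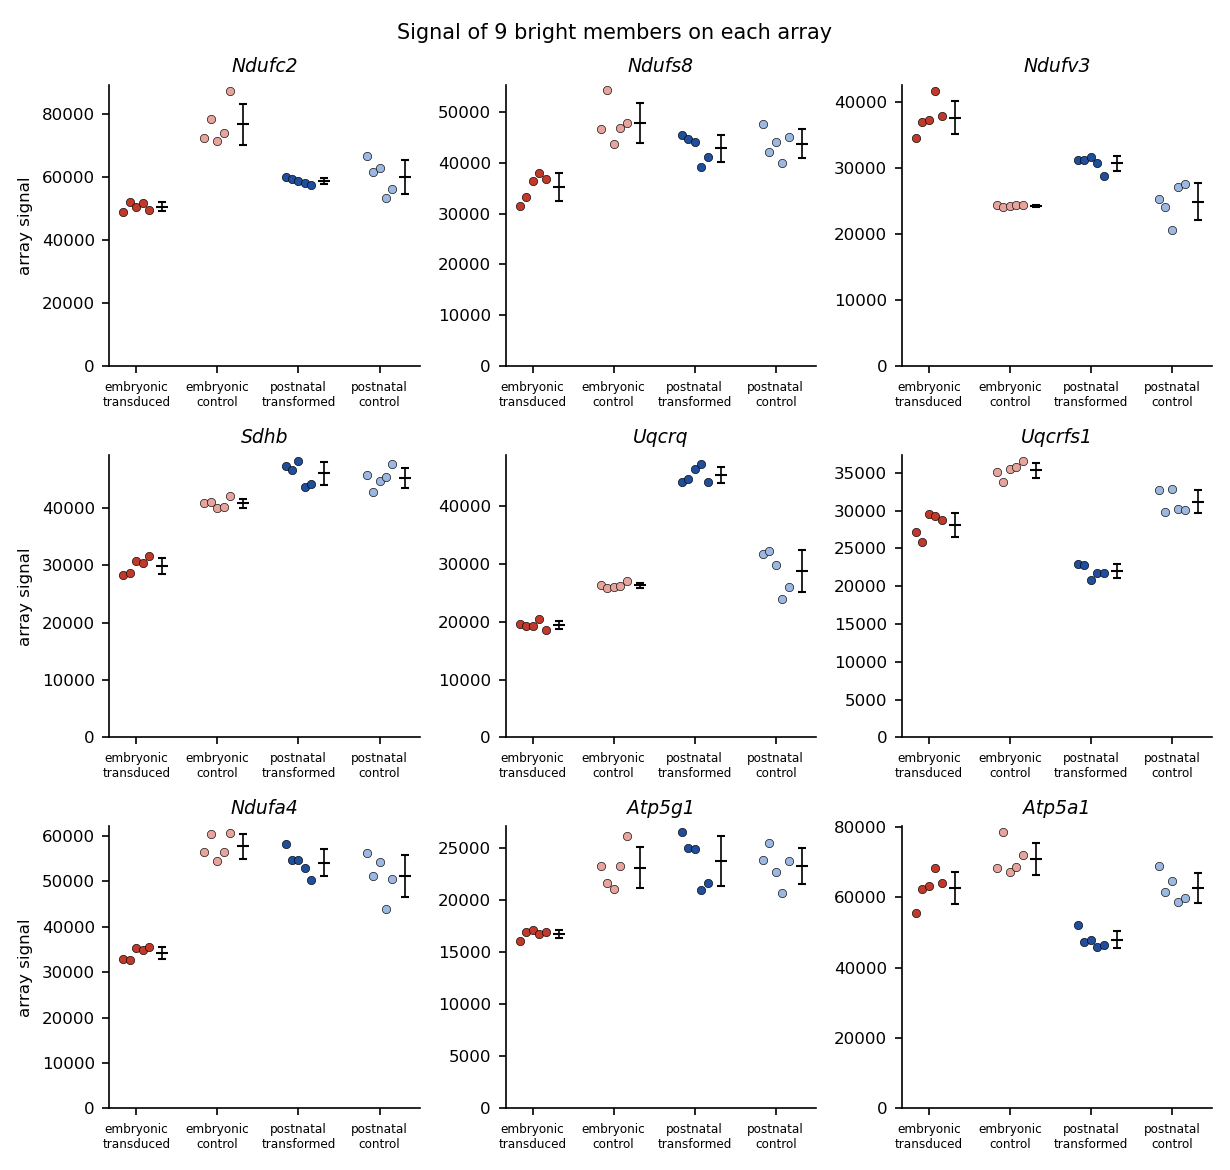
Array signal of 9 bright members on a linear axis from 0, with each of the 5 arrays of a group as a point and mean and SD beside them. Groups run from embryonic transduced and embryonic control to postnatal transformed and postnatal control. Ndufa4, Ndufc2 and Sdhb are low on all embryonic transduced arrays, Uqcrfs1 is lower in both modified groups than in their controls, and Uqcrq is high on all postnatal transformed arrays.

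Complex II, succinate dehydrogenase, is both an enzyme of the TCA cycle and an entry point for electrons, and it has no subunit encoded in mitochondrial DNA. Sdhb, the iron-sulphur subunit, had signals of 28261, 28601, 30788, 30365 and 31566 in embryonic transduced cells, against 40864, 41061, 40106, 40264 and 42055 in embryonic control cells. All transduced arrays lay lower, with a change of -0.45 ± 0.05 (adjusted p = 4.14e-08). Sdhc, a membrane anchor, changed by -0.36 ± 0.05, and Sdha, which holds the flavin, by -0.15 ± 0.06 (adjusted p = 0.0502), just outside the threshold although its arrays did not overlap. Sdhd, the other anchor, was not called in the embryonic cells (0.10 ± 0.07) and was the complex II gene called in the postnatal response. Its signals were 13072, 12808, 14265, 13644 and 13946 in postnatal transformed cells, against 19829.6, 19319, 20158, 15887 and 16263 in postnatal control cells, a change of -0.43 ± 0.07 (adjusted p = 2.33e-05). The postnatal changes of Sdha, Sdhb and Sdhc were -0.08, 0.02 and -0.10, none called. Without postnatal control arrays 4 and 5, Sdha (-0.17) and Sdhc (-0.16) were called lower. For Sdha the pattern depended on the probe set. A second bright Sdha set was called lower in the postnatal response (-0.29) and not called in the embryonic one (0.06), with a called difference of -0.35. The response differed between ages for Sdhb (0.47 ± 0.06), Sdhc (0.26 ± 0.08) and Sdhd (-0.53 ± 0.10).

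Complex III passes electrons from ubiquinol to cytochrome c. Its Rieske iron-sulphur protein Uqcrfs1 had signals of 27113, 25860.0, 29527, 29298 and 28771 in embryonic transduced cells, against 35121, 33818, 35480.4, 35750.3 and 36509 in embryonic control cells. In postnatal transformed cells they were 23001, 22758, 20761, 21723 and 21789, against 32721, 29791, 32879, 30232 and 30099.7 in postnatal control cells. Neither pair overlapped, and the changes were -0.33 ± 0.05 (adjusted p = 9.36e-06) and -0.50 ± 0.05 (adjusted p = 2.22e-08). The core protein Uqcrc1 was lower at both ages (-0.40 ± 0.06 in the embryonic and -0.33 ± 0.06 in the postnatal response). Uqcrc2, the other core protein, was lower in the postnatal response (-0.35 ± 0.06) and stood at 0.00 in the embryonic one (adjusted p of the difference = 0.00192).

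Among the accessory subunits, Uqcrq and Uqcrh moved in opposite directions at the 2 ages. Uqcrq had signals of 19588, 19321, 19255, 20504 and 18629 in embryonic transduced cells, against 26349, 25908, 26061, 26209.6 and 27014 in embryonic control cells. The postnatal transformed arrays read 44251, 44743, 46558, 47396 and 44286, against 31813, 32348, 29889.5, 24006 and 26054 on the postnatal control arrays. The embryonic change was -0.44 ± 0.07, the postnatal change 0.67 ± 0.07 and the difference 1.10 ± 0.09 (adjusted p = 2.91e-09), with no overlap within either pair. These signals come from a probe set whose name marks possible matches to several transcripts, and the other Uqcrq probe sets were near background, above it on 6 to 17 of 20 arrays. Uqcrh, the hinge protein, was higher in embryonic transduced cells (0.14 ± 0.04) and lower in postnatal transformed cells (-0.38 ± 0.04), and its embryonic direction turned to -0.03 when arrays were centred on their median. Uqcrb, the brightest member, was not called in either response (0.06 and -0.04), although its second bright probe set was called lower in the postnatal one (-0.24).

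Complex IV, cytochrome c oxidase, held every member that changed at least 2-fold in either response by its brightest probe set. Of its 19 genes, 4 were higher and 5 lower in embryonic transduced cells, and 5 were higher and 3 lower in postnatal transformed cells. The shares were 21.1% higher and 26.3% lower in the embryonic response, against 21.3% and 18% of all genes, and 26.3% higher and 15.8% lower in the postnatal response, against 20.3% and 22%. Small falls of widely expressed subunits stood beside large rises of isoforms that are otherwise typical of other tissues, and Cox7c made large changes in both directions.

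Cox6a2, the heart and muscle form of subunit VIa, had signals of 31425, 32083, 31905, 28532 and 30453 in postnatal transformed cells, against 744, 1343, 1544, 713 and 452 in postnatal control cells. The rise was 5.12 ± 0.24, or 34.8-fold (adjusted p = 2.44e-13), and the second Cox6a2 probe set, above background on 7 of 20 arrays, averaged 8090 in transformed and 94.6 in control cells. In the embryonic pair Cox6a2 stayed low, at 581 to 1246 in transduced and 613 to 894 in control cells, a change of 0.25 ± 0.24 (adjusted p = 0.47). Postnatal control arrays 4 and 5 held the lowest signals of their group. The widely expressed form, Cox6a1, was not called in the postnatal response (0.09 ± 0.07).

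Cox7a1, the heart and muscle form of subunit VIIa, rose in embryonic transduced cells. Its signals were 4371, 4064, 4287, 4077 and 3518 in embryonic transduced cells, against 337, 268, 304, 307 and 315 in embryonic control cells, a rise of 3.66 ± 0.16, or 12.7-fold (adjusted p = 4.5e-14). In the postnatal pair it read 565, 535, 381, 527 and 426 in transformed cells, against 187, 224, 192, 252 and 191 in control cells, where it lay just above background. That rise was 1.15 ± 0.16 (adjusted p = 2.78e-06), and the difference of responses, postnatal minus embryonic, was -2.51 ± 0.22 (adjusted p = 8.16e-09). Cox7a2, the form found in most tissues, was called in neither response (0.01 and 0.12), although its second bright probe set was called higher in the postnatal one (0.18).

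Of the muscle markers Ckm, Myh7, Acta1 and Actc1, 1 was called higher and 1 lower in the embryonic response, and 0 higher and 1 lower in the postnatal response. Myh7, the slow myosin heavy chain, averaged 542 in embryonic transduced and 225 in embryonic control cells, above background on 5 and on 3 of 5 arrays (adjusted p = 0.0362). Actc1, the cardiac actin, averaged 319 in embryonic transduced and 1742 in embryonic control cells, and was lower in both responses. The summed signal of the 4 ranged over 903 to 2181 in embryonic transduced and 2370.0 to 3436 in embryonic control cells, and over 656 to 1182 in postnatal transformed and 656 to 2336 in postnatal control cells. None of the 4 was below background on all arrays of any group.

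Cox6b2, described as the testis form of subunit VIb, had signals of 11570.1, 11943, 13363, 11582 and 10834 in embryonic transduced cells, against 6073, 5804, 7470.3, 6889.8 and 7460.1 in embryonic control cells, a rise of 0.82 ± 0.16 (adjusted p = 0.0003). It was dimmer in the postnatal groups, at 1370.2 to 1879 in transformed and 1319.9 to 2789 in control cells, without a called change (-0.30 ± 0.16). Postnatal control arrays 4 and 5 read lowest in their group for Cox6b2, and without them the postnatal change was -0.63 and called (adjusted p = 9.08e-05), with no overlap between the groups. Cox6b1, the widely expressed form, moved the other way in the embryonic cells (-0.24 ± 0.06).

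The remaining isoforms were dim. Ndufa4l2, a paralogue of Ndufa4 induced in low oxygen, had signals of 456, 816, 512, 617 and 577 in postnatal transformed cells, against 109, 57.7, 239, 341 and 56.3 in postnatal control cells (adjusted p = 0.00406). The control signals were above background on 2 of 5 arrays, so no exact fold is given, but the groups did not overlap. Cox4i2, a lung form of subunit IV that responds to oxygen, averaged 205 in postnatal transformed and 76.7 in postnatal control cells, above background on 3 and on 1 of 5 arrays, with overlap between the groups (adjusted p = 0.0357), a call lost without postnatal control arrays 4 and 5 (adjusted p = 0.104). Cox8b, a heart and muscle form, was above background on 4 of 5 postnatal control and 3 of 5 postnatal transformed arrays, with 1 control array at 2067, and was not called. Cox8c was called in neither response.

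**Figure D3:**
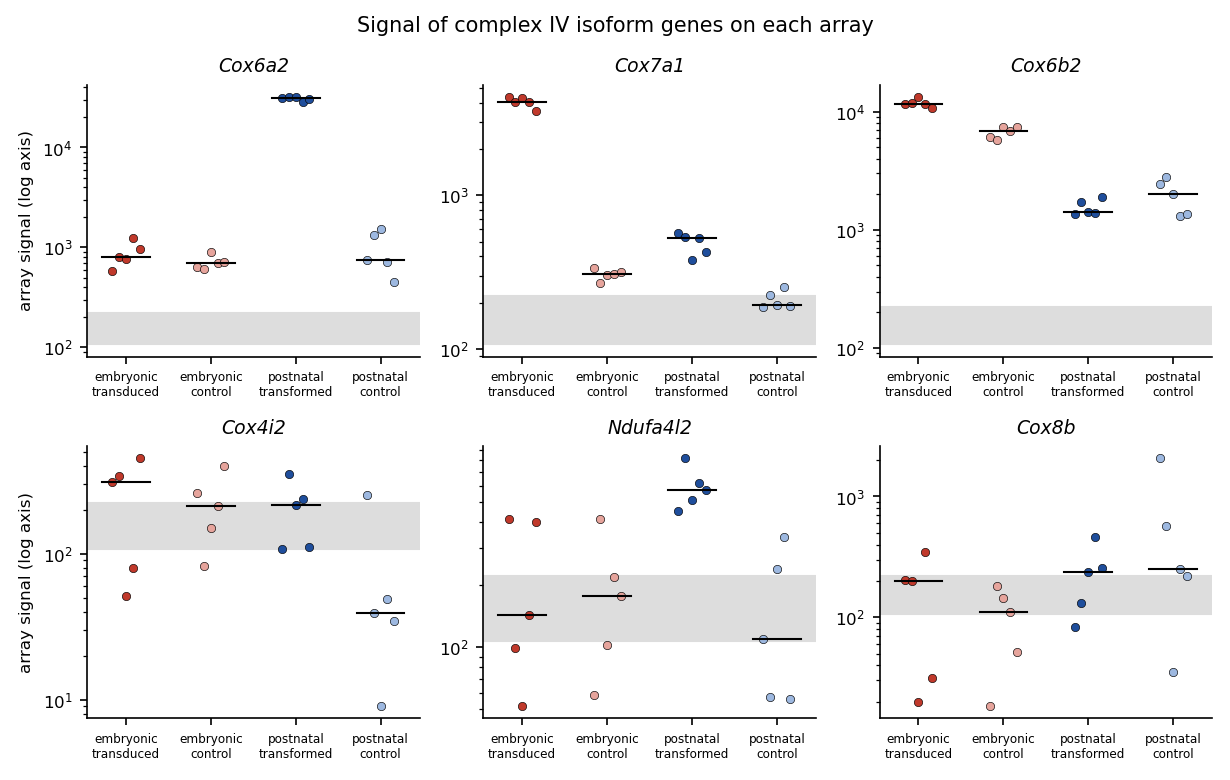
Array signal, on a logarithmic axis, of 6 complex IV isoform genes in the 4 groups, with each array as a point and the median of a group as a bar. The grey band is the background range of 107 to 221. Cox6a2 is far above the other groups on all 5 postnatal transformed arrays and Cox7a1 on all 5 embryonic transduced arrays, whereas Cox4i2 and Cox8b scatter around background.

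Of the widely expressed complex IV genes, Ndufa4 had the largest fall in the embryonic response. This subunit, long assigned to complex I, had signals of 32809, 32721, 35260.0, 34826 and 35634 in embryonic transduced cells, against 56501, 60439.8, 54609, 56465 and 60713 in embryonic control cells, a change of -0.75 ± 0.06 (adjusted p = 1.01e-09) with no overlap. In the postnatal pair it was not called (0.08 ± 0.06), and the responses differed by 0.84 ± 0.08. Cox5b (-0.44 ± 0.07), Cox6b1 and Cox6a1 (-0.21 ± 0.07) fell with it in the embryonic cells, whereas Cox4i1 was called in neither response. Cox5a was not called by its brightest probe set either, but further bright sets of Cox5a were called lower in the embryonic response (-0.28 and -0.21). Cox8a was called lower in both, by -0.17 ± 0.07 in the embryonic and -0.17 ± 0.07 in the postnatal response. These calls held in 17 and 16 of 31 alternative runs. A second bright Cox8a set was called lower in the postnatal response (-0.18) and not in the embryonic one (-0.15, adjusted p = 0.0557). Cox6c rose in the postnatal response (0.30 ± 0.06).

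Cox7c and Cox7a2l went opposite ways at the 2 ages. Cox7c had signals of 2933, 3499, 3225, 3222 and 3418 in embryonic transduced cells, against 1271, 1684, 1094, 1779 and 1519 in embryonic control cells. The postnatal transformed arrays read 509.8, 563, 366, 570.3 and 544, against 1456, 2368, 2380.2, 1446 and 1375 on the postnatal control arrays. Neither pair overlapped, and the changes were 1.16 ± 0.17 and -1.76 ± 0.17 (adjusted p of the difference = 3.53e-09). The second Cox7c probe set changed by 1.10 and -1.31 in the same order. Both Cox7c sets were dim for a widely expressed subunit, the brighter at the 54.4 percentile, and whether they read its main transcript was not tested. Cox7a2l, which joins complexes III and IV into supercomplexes, was higher in embryonic transduced cells (0.32 ± 0.08) and lower in postnatal transformed cells (-0.27 ± 0.08), and its 2 further probe sets gave the same directions. The postnatal call of Cox7a2l was lost without postnatal control arrays 4 and 5 (-0.17, adjusted p = 0.13).

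Complex V, the ATP synthase, had 10 of 17 genes lower and 1 higher in embryonic transduced cells, and 3 lower and 0 higher in postnatal transformed cells. The shares lower were 58.8% and 17.6%, against 41.4% and 39.1% of genes with a mean signal over 10000. All 4 genes of the peripheral stalk, which holds the catalytic head still, were lower in the embryonic response: Atp5pb (-0.32 ± 0.06), Atp5h (-0.31 ± 0.06), Atp5o (-0.27 ± 0.06) and Atp5j (-0.20 ± 0.06). Of these, Atp5pb was also lower in the postnatal response (-0.23 ± 0.06). The c subunit of the proton-driven ring is encoded by 3 genes with the same mature protein. Among them Atp5g1 had signals of 16099, 16892, 17139.6, 16787 and 16936 in embryonic transduced cells, against 23255, 21654, 21112, 23297 and 26199.9 in embryonic control cells, a change of -0.46 ± 0.07 (adjusted p = 1.51e-05). Atp5g2 changed by -0.18 ± 0.06, and Atp5g3, the brightest gene of the complex, by -0.06 ± 0.06 (adjusted p = 0.515). None of the c subunit genes was called in the postnatal response.

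In the catalytic F1 head, the postnatal falls were in Atp5a1, the alpha subunit, and Atp5c1, the gamma subunit. Atp5a1 had signals of 52182, 47250.3, 47727, 45994 and 46465 in postnatal transformed cells, against 68965, 61484, 64520.0, 58563 and 59847 in postnatal control cells, a change of -0.39 ± 0.06 (adjusted p = 1.96e-05) with no overlap. By this set Atp5a1 was also called lower in the embryonic response (-0.18), and the difference of responses was not called. A second bright Atp5a1 set was not called in the embryonic response (-0.03). It changed by -0.58 in the postnatal one, with a called difference of -0.55, so the pattern depended on the probe set. Atp5c1 changed by -0.27 ± 0.06, and its embryonic change was 0.05 (adjusted p of the difference = 0.00303). Atp5b, the beta subunit, was lower in embryonic transduced cells (-0.21 ± 0.05) and not called in the postnatal cells (-0.01). Atp5e, the epsilon subunit, was the complex V gene that rose in embryonic transduced cells (0.22 ± 0.06). Of the membrane subunits, Atp5k (-0.37 ± 0.08) and Atp5l (-0.30 ± 0.05) were lower in the embryonic response, and none of the 5 was called in the postnatal one.

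The assembly factors of complex I matched by the rule held some of the larger changes outside complex IV. Ndufaf3, an early assembly factor, had signals of 3721, 3705, 3752, 4305 and 4492 in embryonic transduced cells, against 5796, 6449, 6554, 5947 and 5927 in embryonic control cells. The postnatal transformed arrays read 8502, 7569, 7730.1, 7434 and 7512, against 4385, 4189, 3802, 3504 and 3929 on the postnatal control arrays. It fell in the first pair (-0.62 ± 0.07) and rose in the other (0.97 ± 0.07), a difference of 1.59 ± 0.10 (adjusted p = 6.62e-11). Ndufaf2, which acts late in assembly, was lower at both ages (-0.70 ± 0.09 in the embryonic and -0.82 ± 0.09 in the postnatal response). Ndufaf4, a partner of Ndufaf3, was called lower in the embryonic response (-0.43 ± 0.11) and not in the postnatal one (-0.04). The second Ndufaf4 probe set, dimmer but above background on all 20 arrays, was called lower in both (-1.16 and -0.29). Ndufaf7 (0.42 ± 0.09) and Ndufaf1 (0.37 ± 0.06) were higher in embryonic transduced cells. In the postnatal response Ndufaf5 was lower (-0.35 ± 0.08) and Ndufaf8 higher (0.25 ± 0.06).

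Both responses set beside each other, 15 members were lower in both, which is 35.7% of the embryonic and 53.6% of the postnatal lower calls, and 3 were higher in both (Ndufv3, Ndufa6 and Cox7a1). Members lower in both were 16.7% of all members, against 7.3% of all genes. Of the 72 members with a mean signal over 10000, 19.4% were lower in both, against 16.9% of all genes this bright. This share was near that of bright genes in general. Of all genes lower in the embryonic response 40.5% were lower in both, and of those lower in the postnatal response 33.2%. Another 8 went opposite ways, 4 lower in the embryonic and higher in the postnatal response (Ndufs5, Uqcrq, Ndufaf3 and Ndufaf8) and 4 the reverse (Uqcrh, Cox7a2l, Cox7c and Ndufaf1), which is 8.89% of members, against 9.05% of all genes. Without postnatal control arrays 4 and 5 the postnatal calls of Ndufs5, Cox7a2l and Ndufaf1 were lost. For 21 members, or 23.3%, neither response was called, against 42.7% of all genes. Among members with a mean signal over 10000 the share was 20.8%, against 12.2% of all genes this bright. The difference of responses, postnatal minus embryonic, was positive for 32 members and negative for 15, against 18.1% and 20.8% of all genes, and against 37.2% and 28.9% of genes with a mean signal over 10000. It was at least 2-fold and positive for 4 members and negative for 3, against 9.36% and 9.75% of all genes. Age and the kind of modification cannot be told apart in it.

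Between the controls, 10 members were higher and 17 lower in postnatal than in embryonic cells, which is 11.1% and 18.9%, against 16.4% and 15.6% of all genes and 22.4% and 31.3% of genes with a mean signal over 10000. At least 2-fold, 0 were higher and 2 lower, against 4.86% and 5.72%, and the groups did not overlap for 5 higher and 9 lower, against 11.2% and 11% of all genes. This comparison also holds any difference in origin or culture. Its split turned with the scaling, to 21 higher and 9 lower after quantile normalization, and to 13 higher and 10 lower without postnatal control arrays 4 and 5, so no direction is given for the family. Cox6b2 had the largest change, at 1987 ± 651 in postnatal control and 6739 ± 774 in embryonic control cells (SD, n = 5 each), a change of -1.81 ± 0.16 (adjusted p = 2.11e-08). Ndufaf3 (-0.63 ± 0.07), Ndufaf6 (-0.43 ± 0.09) and Ndufc2 (-0.35 ± 0.06) were lower in the postnatal controls, and Ndufb9 (0.30 ± 0.05) and Uqcr11 (0.22 ± 0.05) higher.

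Between the modified groups, 34 members were higher and 27 lower in postnatal transformed than in embryonic transduced cells, 37.8% and 30.0%, against 23.9% and 28.2% of all genes and 41.6% and 40% of genes with a mean signal over 10000. At least 2-fold, 3 were higher and 3 lower, against 11.7% and 13.7% of all genes, and the groups did not overlap for 29 higher and 23 lower, against 21.8% and 24.8%. Cox6a2 (5.17 ± 0.24), Uqcrq (1.22 ± 0.07), Ndufaf3 (0.96 ± 0.07), Ndufb9 (0.71 ± 0.05), Ndufs5 (0.68 ± 0.05) and Sdhb (0.62 ± 0.05) were higher in postnatal transformed cells. Cox7a1 (-3.03 ± 0.16), Cox6b2 (-2.93 ± 0.16), Cox7c (-2.65 ± 0.17), Sdhd (-0.66 ± 0.07) and Atp5c1 (-0.44 ± 0.06) were lower there.

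Other genes of mitochondrial energy metabolism were followed as lists. Of 18 measured genes of pyruvate dehydrogenase and the TCA cycle, 11 were lower and 3 higher in embryonic transduced cells (median -0.23) and 9 lower and 3 higher in postnatal transformed cells (median -0.25). That is 61.1% and 50% lower, against 18% and 22% of all genes, and 41.4% and 39.1% of genes with a mean signal over 10000. Mpc1, a subunit of the carrier that brings pyruvate into mitochondria, averaged 7125 ± 439.7 in embryonic transduced and 26353 ± 801 in embryonic control cells, a change of -1.89 ± 0.06 (adjusted p = 7.73e-16). Suclg1, a subunit of succinyl-CoA ligase, was lower in both responses (-0.77 ± 0.05 and -0.64 ± 0.05), and Pdhb, of pyruvate dehydrogenase, changed by -0.87 ± 0.05 in the postnatal one. Of 76 mitochondrial ribosomal protein genes, 28 were lower and 7 higher in the embryonic response and 36 lower and 3 higher in the postnatal response. That is 36.8% and 47.4% lower, against 18% and 22% of all genes. Of genes with a mean signal over 10000, 41.4% and 39.1% were lower. Mrpl36 changed by -1.23 ± 0.05 in the embryonic cells and Mrps6 averaged 38655 in postnatal transformed and 14057 in postnatal control cells (adjusted p = 3.8e-10).

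Among 42 measured assembly factors of the complexes, the 8 described above included, 19 were lower and 10 higher in the embryonic response, and 12 were lower and 12 higher in the postnatal response. The shares lower were 45.2% and 28.6%, against 18% and 22% of all genes. Cox16 (-1.29 ± 0.10) and Cox19 (-0.84 ± 0.08), factors of complex IV assembly, fell in embryonic transduced cells, whereas Surf1 rose in postnatal transformed cells (0.61 ± 0.07). Of 20 regulators of mitochondrial genes, 6 were higher and 5 lower in the embryonic response, and 1 was higher and 4 lower in the postnatal one. With 25% and 20% lower the regulators were near all genes in that direction (18% and 22%). Higher regulators made up 30% and 5%, against 21.3% and 20.3% of all genes. Polg, the mitochondrial DNA polymerase, was lower in both (-0.67 ± 0.08 and -1.33 ± 0.08). Ppargc1b, a coactivator of mitochondrial genes, averaged 2431 in embryonic transduced and 303 in embryonic control cells, where it was above background on 3 of 5 arrays (adjusted p = 9.36e-09). Of 13 measured electron carriers and further members, 2 were higher and 3 lower in each response (23.1% lower, near the 18% and 22% of all genes), and Higd1a, a complex IV partner induced in low oxygen, rose by 1.45 ± 0.08 in embryonic transduced cells. Of 7 genes of ATP and phosphate exchange, 2 were lower and 0 higher in the embryonic response. In the postnatal one 2 were lower and 2 higher. That is 28.6% lower in each, against 18% and 22% of all genes.

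Of 15 measured glycolysis genes, 14 were higher and 1 lower in the embryonic response (median 0.89). That is 93.3% and 6.67%, against 21.3% and 18% of all genes. The glucose transporter Slc2a1 rose by 2.46 ± 0.18 and hexokinase Hk1 by 1.18 ± 0.07 in embryonic transduced cells. In the postnatal response 7 of the 15 were higher and 5 lower (median -0.05). Those shares were 46.7% and 33.3%, against 20.3% and 22% of all genes.

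**Figure D4:**
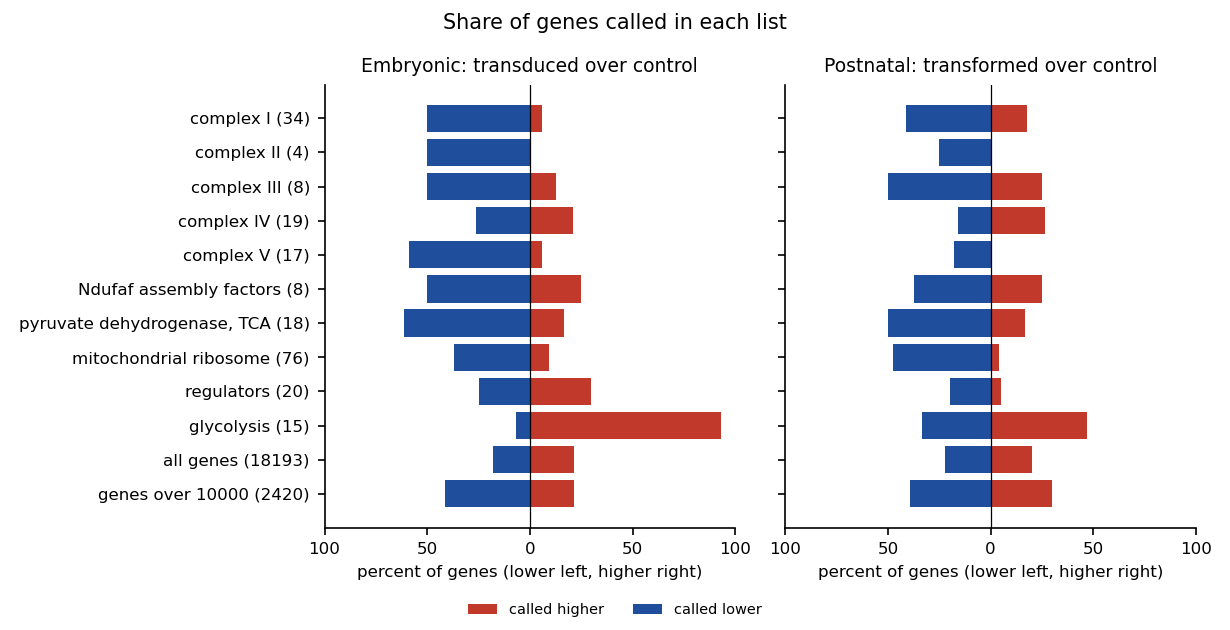
Percent of the genes of each list called lower (blue, left) and higher (red, right) in the embryonic response (transduced over control) and the postnatal response (transformed over control). The number of genes measured is in brackets, and the lowest bars are all genes and all genes with a mean signal over 10000. Complex V stands at 58.8% lower and glycolysis at 93.3% higher in the embryonic panel.

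Signs of RNA quality moved a little with the groups, and their part in these changes was not tested. The log2 ratio of the 3′ to the 5′ control probe sets of Gapdh averaged -0.30 in embryonic transduced and -0.38 in embryonic control cells, and -0.55 in postnatal transformed and -0.46 in postnatal control cells. For Actb the ratio averaged 0.42 in embryonic transduced and 0.32 in embryonic control cells, without overlap, and 0.28 in postnatal transformed and 0.25 in postnatal control cells, so in the postnatal pair Gapdh and Actb moved in opposite directions. For called genes, a second probe set well above background mostly had the same direction. Of 43 such sets of genes called in the embryonic response 39 had the same sign, and of 32 in the postnatal response 29 had it, and none of the others was called the opposite way. These counts leave out genes not called by their brightest set. Some of those had a further bright set that was called. Examples are Cox5a (lower) in the embryonic response, and Sdha, Ndufv2, Ndufb2, Ndufs8 and Uqcrb (lower) and Cox7a2 (higher) in the postnatal one. By such a set, Atp5d was higher in the embryonic (0.23) and lower in the postnatal response (-0.21).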

How the data were processed

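Total RNA of 20 samples was hybridised to 1-colour Affymetrix arrays. The authors deposited linear intensities of 45101 probe sets per array. How they were summarised and normalized is not given in the sources used here. With 2% trimmed at each end, array means ran from 2500.014 to 2500.015, the pattern left by 1 scaling factor per array, and no further scaling was applied. From 61.3% to 73.2% of an array's probe sets exceeded background. The number of arrays, 5 per group, limits the precision.

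After removal of 64 controls, 34945 probe sets had a single gene symbol in the platform annotation, 932 had several and 9160 were unlisted. Each gene kept the single-symbol probe set that was brightest over all arrays on the log2 scale, and 51 of the 90 members had more than 1. The scale was log2(signal + 16), on which changes of dim genes are understated. A model of 4 group means over all 20 arrays was fitted with limma 3.58.1 (lmFit, eBayes with intensity trend) in R 4.3.3, with the package data.table in version 1.17.8, two-sided, with Benjamini-Hochberg adjustment over 18193 genes, after it was tested on simulated data. Where a gene was above background on 1 to 3 of 5 arrays of a group, no exact fold is given. Samples were grouped by their labels, and 5 comparisons were made: both responses, their difference, and the age comparisons of control and of modified cells.

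Earlier results of these data were known when the members, the lists and the naming rule were chosen. The rule named, in each complex, up to 4 called members with the largest change in each response and up to 3 in the other comparisons, all complex II subunits, the paired or tissue isoforms, the brightest and dimmest members, and up to 4 genes of each other list with the smallest p. Alternatives were 3 scalings, offsets of 1 and 64, other choices of probe set, a filter on dim genes, no intensity trend, a block for the replicate number, a 2-fold rule, leaving out postnatal control arrays 4 and 5, and leaving out each array in turn. Promoters are from RefSeq, assembly GRCm38.p6.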

Additional observations from a re-analysis of the deposited data

Results flagged for a closer look

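Single arrays stood apart from the other 4 of their group, by Dixon's test at its 95% level, in 20 of 360 tests of a member in a group, or 5.56%, where chance flags about 1 in 20. In embryonic transduced cells these were Ndufab1 with 34603 on array 1, Ndufb10 with 16449 on array 5, Ndufb3 with 24808 on array 3 and Ndufb4 with 17.2 on array 5. In embryonic control cells these were Cox6b1 with 105500 on array 5, Cox7b2 with 93.9 on array 4, Ndufa13 with 66874 on array 2, Ndufa8 with 27490 on array 4, Ndufab1 with 41838 on array 5, Ndufaf1 with 5347 on array 2, Ndufb1 with 2994 on array 2 and Sdha with 32795 on array 3. In postnatal transformed cells these were Atp5l with 43956 on array 5, Atp5pb with 72688 on array 4, Cox7c with 366 on array 3, Ndufa8 with 27799 on array 1 and Ndufv3 with 28845 on array 5. In postnatal control cells these were Atp5d with 39844 on array 4, Cox7a2l with 20441 on array 2 and Uqcrc2 with 32596 on array 5. Their part in the results was not tested, and leaving out each array in turn is described under the processing.

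For 47 members the 2 responses differed by the interaction term at an adjusted p under 0.05, and values are given for the 46 that were measured in both pairs. Values are the postnatal minus the embryonic response on the log2 scale. It was positive in complex I for Ndufa1 (0.25), Ndufa12 (0.34), Ndufb10 (0.35), Ndufb2 (0.45), Ndufb9 (0.41), Ndufc1 (0.27), Ndufc2 (0.57), Ndufs5 (0.52), Ndufs8 (0.41) and Ndufv2 (0.19), in complex II for Sdhb (0.47) and Sdhc (0.26) and in complex III for Uqcr10 (0.39), Uqcr11 (0.16) and Uqcrq (1.10). In complex IV it was positive for Cox5b (0.39), Cox6a1 (0.30), Cox6a2 (4.87), Cox6b1 (0.22), Cox6c (0.35) and Ndufa4 (0.84), in complex V for Atp5b (0.20), Atp5g1 (0.49), Atp5h (0.29), Atp5j (0.28), Atp5k (0.50), Atp5l (0.37) and Atp5o (0.40), and among assembly factors for Ndufaf3 (1.59), Ndufaf4 (0.39) and Ndufaf8 (0.47). It was negative in complexes I to III for Ndufb11 (-0.37), Ndufs4 (-0.35), Ndufs7 (-0.36), Ndufv3 (-0.32), Sdhd (-0.53), Uqcrc2 (-0.36) and Uqcrh (-0.52), in complex IV for Cox6b2 (-1.12), Cox7a1 (-2.51), Cox7a2l (-0.59) and Cox7c (-2.92), in complex V for Atp5c1 (-0.32) and Atp5e (-0.36), and among assembly factors for Ndufaf1 (-0.52) and Ndufaf6 (-0.40). For Ndufa4l2, above background on 2 or 3 of 5 arrays in the other 3 groups, the difference was positive and no size is given. Without postnatal control arrays 4 and 5, the differences of Atp5b, Cox6b1, Ndufaf4 and Ndufv2 were not called. Those of Atp5a1 (-0.26), Ndufb7 (-0.21), Ndufb8 (-0.26) and Uqcrfs1 (-0.20) were called only without these arrays.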

How the results depend on the processing

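Of the calls on members, 35 of 52 in the embryonic and 27 of 43 in the postnatal response held in every alternative run at the same threshold, leaving out each array included and the 2-fold rule aside, and 46 and 41 never turned their sign. Scaling moved counts most among the alternatives that keep the call rule. With arrays centred on their median, the members higher in the embryonic response numbered 6. After quantile normalization, 23 members were negative in the difference of responses, and in the control age comparison 21 were higher and 9 lower. Centring on the 75th percentile or the median left 3 higher there. Without postnatal control arrays 4 and 5, 10 were lower in that comparison, and without each array in turn between 10 and 20 were, the lowest without postnatal control replicate 5 and the highest without postnatal control replicate 1. The rule of at least 2-fold left 2 higher and 0 lower in the embryonic response, 4 and 1 in the postnatal response, 4 and 3 in their difference, 0 and 2 between controls and 3 and 3 between modified groups. Beside the 0 lower members in the embryonic response stand the 42 called by limma without the 2-fold rule.

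The choice of probe set turned some signs. With the mean of all single-symbol probe sets, the embryonic change was 0.15 for Atp5g2, 0.034 for Cox8a, 0.017 for Ndufa12, 0.083 for Ndufb2 and 0.43 for Uqcrq, and the postnatal change of Ndufa10 was 0.16. That mean gives dim sets the same weight. Without sets ending in _x_at or _s_at, the embryonic change was 0.71 for Ndufa12 and 0.048 for Uqcrq, and the postnatal change of Uqcrq was -0.21, each read from a dim set. With median centring, the embryonic change of Uqcrh was -0.030. Samples of 1 replicate number showed no shared variation (correlations of -0.053 to 0.032 between embryonic and -0.0095 to 0.020 between postnatal samples). Whether they were paired by design cannot be told from this. With the replicate block, 10 members were higher and 40 lower in the embryonic and 16 higher and 26 lower in the postnatal response. Signal over background limits what can be said of Ndufb4, Cox4i2, Cox7b2, Cox8b and Ndufa4l2.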

Other observations

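Where a called member had a further, dimmer probe set that still averaged over 10000, the dimmer set changed in the same direction and often gave the larger change, a comparison chosen after the data were seen. This was so for 20 of 31 sets in the embryonic response, with a median absolute change of 0.37 for the dimmer and 0.32 for the representing sets, and for 13 of 21 sets in the postnatal response, with 0.35 and 0.33. The cause was not tested. The size of the changes given for the brightest members depends to this extent on the probe set chosen.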
